A study of Mus musculus with 2 samples.

Results

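The 5 microRNAs (miRNAs) of red cells followed here in mouse femur after ovariectomy were mmu-miR-451a, both arms of the miR-144 hairpin (mmu-miR-144-5p and mmu-miR-144-3p), and both arms of the miR-486a hairpin (mmu-miR-486a-5p and mmu-miR-486a-3p); the prefix mmu, for mouse, is dropped from here on. They were chosen by name, as the probes that carry these 5 names among the 1881 mouse miRNAs on the array, and each has 2 probes. The study compared 1 pooled RNA sample from wild-type (wt) mice that had a sham operation with 1 from wild-type mice that had an ovariectomy (OVX), surgery that takes out the ovaries and with them the main source of estrogen. All mice were 9-month-old females on a C57BL/6 background, each pool joined the tissue of 4 mice, and the tissue was femur with its marrow and bone. The time between surgery and collection is not given in the sources used here. Each pool was hybridised to 1 single-colour Agilent miRNA array, so the comparison has no replicates, no test was made, and "higher" and "lower" describe these 2 arrays.

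A miRNA is a short RNA that guides a silencing complex to messenger RNAs, mostly through its seed, the bases 2 to 8 from its 5′ end. miR-144 and miR-451a are cut from a single primary transcript that the erythroid factor GATA1 switches on in red-cell precursors, and miR-451a becomes one of the most abundant miRNAs of mature red cells. Both arms of miR-144 are released by Dicer in the usual way. miR-451a skips Dicer, and its hairpin is cut by the slicer Argonaute2. It restrains Ywhaz, which encodes a 14-3-3 protein, and mice without the cluster have red cells that are sensitive to oxidative stress. miR-486 lies in Ank1, the gene of the ankyrin that anchors the red-cell membrane skeleton, and is abundant in red cells and in skeletal and heart muscle. Marrow makes red cells, so whole femur holds both precursors and mature cells.

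The mature sequences show how unlike these miRNAs are, although 3 of them come from a single transcript. Seeds are in capitals, and the sequences are those of RefSeq on GRCm38.p6, where 3 of the 5 names matched.
miR-451a: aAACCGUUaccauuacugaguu
miR-144-3p: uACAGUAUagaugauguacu
miR-144-5p: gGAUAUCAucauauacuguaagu
No other mature miRNA of the 1679 in that table has any of these seeds from base 2 to base 8. Over bases 2 to 7, miR-144-3p shares its letters with 1 other, miR-101a-3p. The longer probe of miR-101a-3p had a processed signal of 4.72 on the sham array, where none of its spots was well above background, and 23.7 in OVX, where it was.

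The hairpins are shown because the arms were measured separately. Mature bases are in capitals.
Mir144: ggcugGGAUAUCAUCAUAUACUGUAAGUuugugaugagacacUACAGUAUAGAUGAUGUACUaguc
Mir451a: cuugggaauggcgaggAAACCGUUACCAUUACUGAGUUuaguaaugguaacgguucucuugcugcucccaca
In the minimum free energy fold, miR-144-5p (bases 6 to 28 of 66) and miR-144-3p (bases 43 to 62) lie on opposite sides of a terminal loop of 6 bases and neither enters it. miR-451a (bases 17 to 38 of 72) runs through the whole terminal loop of 4 bases, with 17 of its 22 bases paired. The scanner headers name build mm9, on which the miR-144-3p probes match chr11:77886550-77886568 and the miR-451a probes match chr11:77886689-77886709, with 120 bases between them. The miR-144-5p probes match chr11:77886513-77886534. These listed spans on chromosome 11 are 1 base shorter than the probes. In the RefSeq gene table (GRCm38), Mir144 and Mir451a lie in no other gene, with Flot2 and Eral1 as the protein-coding genes on either side. The miR-486a-5p probes match chr8:24253067-24253080 and the miR-486a-3p probes chr8:24253105-24253121, and the gene Mir486 lies inside Ank1 in the RefSeq table.

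The probes decide what each signal can show, so they are printed as the files give them. Within each pair the longer probe has 1 more base at its 3′ end, in capitals, which faces the 5′ end of the miRNA.
miR-451a, shorter: aactcagtaatggtaacggtt
miR-451a, longer: aactcagtaatggtaacggttT
miR-144-3p, shorter: agtacatcatctatactgt
miR-144-3p, longer: agtacatcatctatactgtA
miR-144-5p, shorter: acttacagtatatgatgatatc
miR-144-5p, longer: acttacagtatatgatgatatcC
miR-486a-5p, shorter: ctcggggcagctc
miR-486a-5p, longer: ctcggggcagctcA
miR-486a-3p, shorter: atcctgtactgagctg
miR-486a-3p, longer: atcctgtactgagctgC
For miR-451a and the miR-144 arms the longer probe covers the whole mature miRNA and the shorter one covers it from base 2. No other mature miRNA in the RefSeq table holds the full site of a miR-451a or miR-144 probe. For the miR-486a probes that search could not decide, since the table had no entry under the miR-486a names. The miR-486a-5p probes are short, at 13 and 14 bases, and rich in G and C (76.9% and 71.4%). The miR-144 probes hold between 27.3% and 31.6%, and the miR-451a probes 38.1% and 36.4%. The array lists the miR-486a-5p probes also under the names miR-3107 and miR-3107-5p, which belong to miR-486b on the opposite strand, so the signal does not separate them.

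On both arrays 197 miRNAs were measured, meaning that a probe had over 50% of its spots well above background on each. They include 4 of the 5 red-cell miRNAs (7 of their 10 probes), and miR-486a-3p is the one left out. The OVX array was brighter throughout, by a factor of 2.02 at the 75th percentile of the 350 probes measured on both, and 193 of the 197 miRNAs were brighter there before scaling. Control probes, which do not come from the mice, were also brighter on the OVX array, by 0.38 on the log2 scale (median of 10 types, from 0.12 to 0.80). How much of the overall brightness is RNA and how much is labelling was not tested. Each array was therefore scaled to its own 75th percentile, and a difference is log2 OVX minus sham set against the other miRNAs of that array. Its error is the standard error between the spots of a probe (spot SE), which is technical and holds no variation between mice. Tissue markers were uneven. The granulocyte miRNA miR-223-3p was bright (6212 in sham, 8213 in OVX), liver, brain and pancreas markers (4 of 4) were at background on both arrays, and of 6 stroma and bone miRNAs 1 was measured on both arrays.

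The 2 arms of miR-144 were higher in OVX, miR-451a was slightly higher, and miR-486a-5p was lower. miR-144-5p differed by 0.97 (spot SE 0.07), or 1.96-fold, and miR-144-3p by 0.85 (spot SE 0.05), or 1.81-fold. miR-451a differed by 0.28 (spot SE 0.03), or 1.21-fold, and miR-486a-5p by -0.71 (spot SE 0.03), or 0.612-fold. Of the 4 measured, 3 were above 0, where 47.2% of all measured miRNAs were. Of the same 4, 2 were at least 1.5-fold higher, where 11.2% of the 197 were, and 1 was at least 1.5-fold lower, where 14.7% were. The 2 higher ones are the arms of 1 hairpin, and 3 of the 4 come from 1 transcript, so they are not separate units. The lower call, of miR-486a-5p, was lost in several of the 15 processing alternatives. It was lost with the 75th percentile of all probes (-0.56), no scaling (0.31) and control-probe scaling (-0.071). Without scaling 0 of the 197 miRNAs were at least 1.5-fold lower, and with control-probe scaling 2 were. The lower call was also lost with normexp background correction (-0.50), removal of the GC trend (-0.46) and Agilent's gene-level signal (-0.37). As reported, none of the 4 reached 2-fold in either direction, a size passed by 2.03% of all measured miRNAs upward and 2.03% downward. From the highest difference downward, miR-144-5p ranked 5 of 197, miR-144-3p 11, miR-451a 51 and miR-486a-5p 178. In bulk tissue fewer cells of a type and less RNA per cell cannot be told apart.

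**Figure D1:**
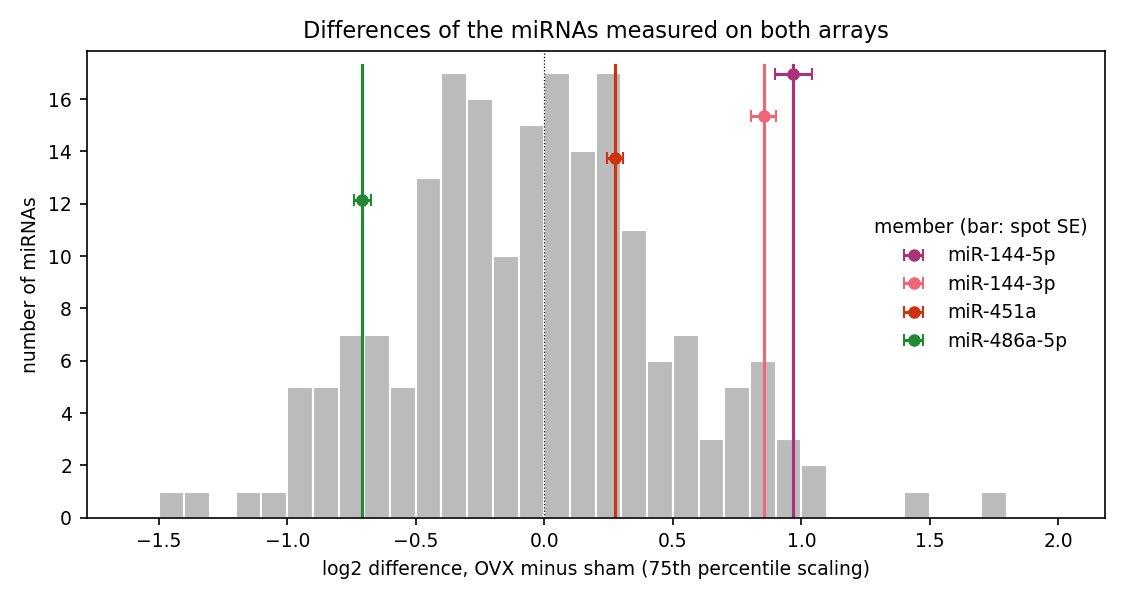
Histogram of the log2 difference (OVX minus sham, x axis, scaled to the 75th percentile) over the 197 miRNAs measured on both arrays (y axis, number of miRNAs), with the 4 measured red-cell miRNAs as coloured points whose bars are the spot SE; point height has no meaning. The miR-144 arms at 0.97 and 0.85 lie in the upper tail, miR-451a at 0.28 lies near the upper quartile, and miR-486a-5p at -0.71 lies in the lower tail.

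miR-144-3p targets Nfe2l2, a regulator of antioxidant genes. Its longer probe had a mean processed signal of 99.4 in sham (spot SE 4.41, 15 spots) and 364 in OVX (spot SE 10.4, 14 spots). Spots ran from 64.9 through a median of 106.5 to 117.9 in sham and from 270.6 through 373 to 412 in OVX. The shorter probe gave 91.6 (spot SE 3.55) and 332 (spot SE 6.79). The probes therefore returned nearly the same size, a difference of 0.86 (spot SE 0.08) for the longer and 0.85 (spot SE 0.06) for the shorter. Every OVX spot of both probes lay above every sham spot, also after the sham spots were multiplied by the scaling factor, when they reached at most 226 for the shorter probe and 237.9 for the longer.

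miR-144-5p, the opposite arm, was dim and rests on 1 probe. That longer probe had a mean of 32.3 in sham (spot SE 1.52, 15 spots, from 24.0 to 44.0 with a median of 32.3) and 127.6 in OVX (spot SE 2.19, 14 spots, from 114.5 to 142.5 with a median of 127.3). Its spots did not overlap between arrays before or after scaling. The shorter probe, with 1 base less, was not well above background in sham, at 4.90 (spot SE 0.64, 0 of 14 spots well above background), and was at 17.9 in OVX (spot SE 1.04, 5 of 15 spots). Negative control spots averaged 1.93 ± 2.81 (SD, 982 spots) in sham and 1.36 ± 2.86 (SD, 978 spots) in OVX. The size for this arm therefore has no second probe behind it, although it lies close to that of the other arm.

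miR-451a, the Dicer-independent member of the cluster, was far above background on both arrays. The longer probe had a mean of 4031 in sham (spot SE 105.7, 14 spots, from 3079 to 4494 with a median of 4079) and 10036 in OVX (spot SE 99.4, 13 spots, from 9289 to 10550 with a median of 10078). Its shorter probe gave 2149 (spot SE 37.4, 13 spots) and 5143 (spot SE 141, 14 spots). Before scaling the OVX spots of both probes were all above the sham spots, at 2.49-fold and 2.39-fold. After scaling the differences were 0.30 (spot SE 0.04) for the longer and 0.25 (spot SE 0.05) for the shorter probe, and the spots of the shorter probe then overlapped, with sham from 3797 to 4780 and OVX from 3859 to 5851.

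miR-486a-5p differed from the cluster in direction relative to the other miRNAs. Its longer probe had a mean of 257 in sham (spot SE 7.81, 15 spots, from 188 to 292 with a median of 266) and 315 in OVX (spot SE 7.43, 15 spots, from 263 to 378 with a median of 310). The shorter probe gave 161 (spot SE 2.65, 13 spots) and 201 (spot SE 3.46, 13 spots). Unscaled, this is 1.23-fold and 1.24-fold higher in OVX, with overlapping spots, while the median measured miRNA was 0.97 higher on the log2 scale. After scaling both probes were lower in OVX, by -0.72 (spot SE 0.06) and -0.70 (spot SE 0.03), and every OVX spot lay below every sham spot. Its direction thus depends on the scaling, and what does not is that it gained less brightness than most miRNAs.

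Across the 7 measured probes of these miRNAs, 4 had all OVX spots above all sham spots after scaling, where 18.9% of the 350 probes did, and 2 had them all below, where 18.3% did. Without scaling the counts were 5, where 76.0% of all probes did so, and 0. The 2 probes of a miRNA overlap in sequence, so probes are not separate units. Unscaled, 3 of the 4 miRNAs had OVX signals of at least 2-fold the sham signal, where 49.2% of all measured miRNAs did.

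**Figure D2:**
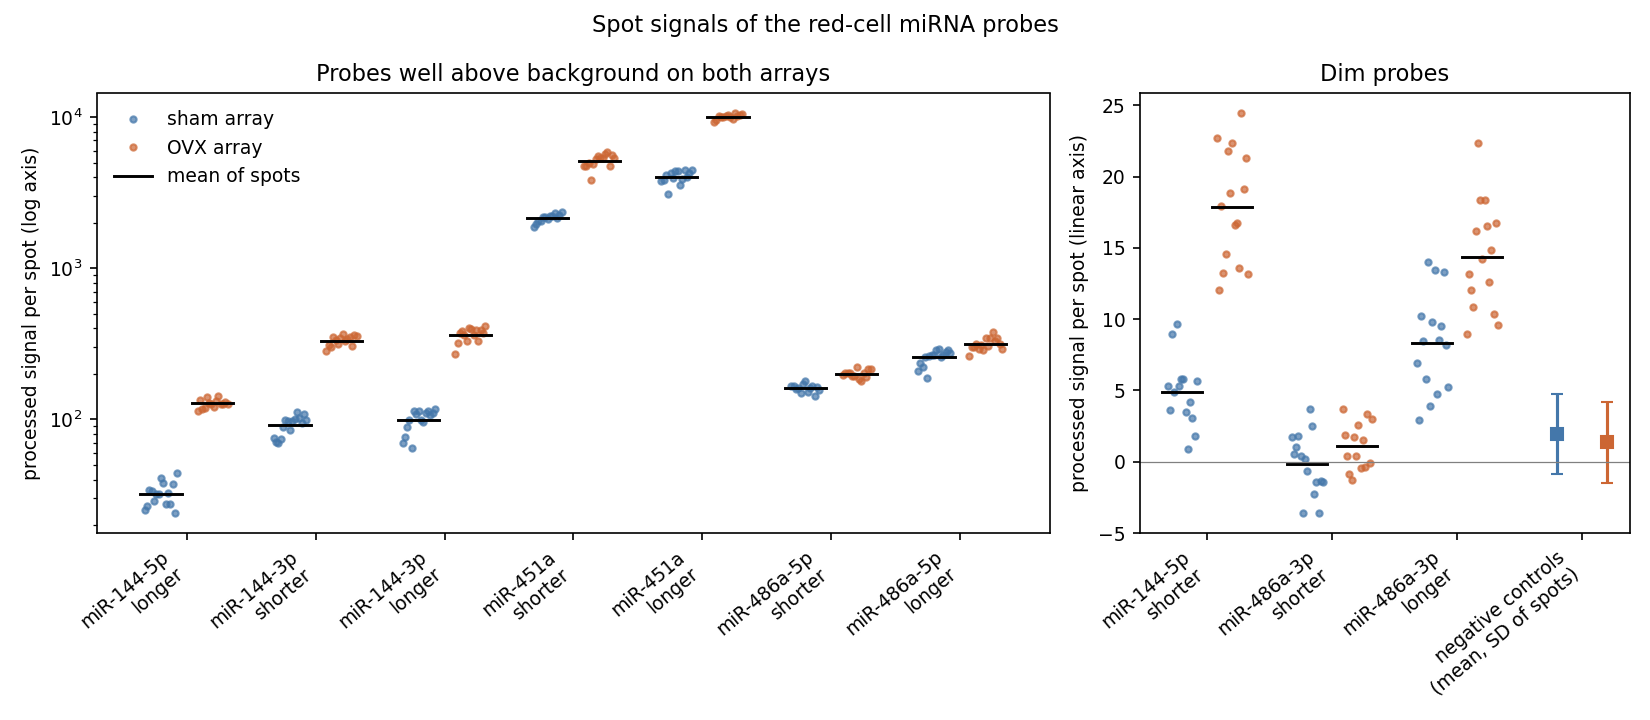
Processed signal (unscaled) of each usable spot on the sham array (blue) and the OVX array (orange), with a black bar for the mean of a probe's spots; the left panel has a log y axis and the 7 probes measured on both arrays, the right panel a linear y axis, the 3 dim probes and the mean and SD of the negative control spots. The miR-144 and miR-451a spots separate by array, those of miR-486a-5p overlap, and the longer miR-486a-3p probe has means of 8.35 and 14.3 beside negative control means of 1.93 and 1.36, with its lowest sham spot (2.91) inside the controls' SD band.

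miR-486a-3p, the other arm of miR-486a, was not well above background on either array. Its shorter probe had a mean of -0.15 in sham and 1.11 in OVX, within the spread of the negative controls. The longer probe had 8.35 (spot SE 0.90) and 14.3 (spot SE 0.97), with 0 of 15 and 1 of 15 spots well above background, so no level is given. Nearly the same probe sequence serves miR-486b-3p of the opposite strand, and its longer probe was at 4.79 and 7.68, also not well above background. miR-451b, read from the strand opposite to miR-451a, was at or below 0 with both probes on both arrays, from -3.24 to -1.46. Agilent's own gene-level signal called miR-486a-3p detected on the OVX array, at 15.6, and not on the sham array.

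Probe pairs show how far 1 base changes what is seen and how closely a difference repeats between nested probes on the same 2 arrays. That repeat is technical and holds no variation between mice. A C facing base 1 of the miRNA separates the miR-144-5p probes. It went with a change from not well above background to well above it on the sham array. Levels of different probes are therefore not directly comparable, which also limits the summed signals of lists given below. Differences between arrays were close within each measured pair, at 0.06 apart for miR-451a, 0.01 for miR-144-3p and -0.02 for miR-486a-5p (longer minus shorter). The SD between probes of a miRNA was 0.11 over the 139 miRNAs with at least 2 measured probes.

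Contrasts between members do not move when an array is scaled by a constant. The miR-144 arms differed by 0.11 (spot SE 0.09; miR-144-5p minus miR-144-3p), which is little more than the spot error. Among the 9 hairpins with both arms measured this was the smallest gap, with a median size of 0.67, but the gap between the miR-144 arms was -0.37 with normexp, -0.82 with dim signals floored and -2.48 with Agilent's gene-level signal, where the other hairpins were not ranked. miR-144-3p exceeded miR-451a, its neighbour in the same transcript, by 0.58 (spot SE 0.06), and miR-144-5p exceeded it by 0.69 (spot SE 0.08). The last contrast turned to -0.28 with normexp, -0.24 with dim signals floored and -1.91 with the gene-level signal, and miR-144-3p minus miR-451a stayed above 0 in all 15 alternatives, at 0.092 with normexp. Over 16 pairs of measured miRNAs from separate hairpins within 10000 bases on 1 strand, these pairs included, the median size was 0.48, and 9 and 10 of the 16 were smaller than these values. Gaps of this size between clustered miRNAs were thus common on these arrays. The contrast with miR-486a-5p was larger: 0.98 (spot SE 0.04) for miR-451a, 1.56 (spot SE 0.06) for miR-144-3p and 1.68 (spot SE 0.08) for miR-144-5p, or 1.98-fold, 2.95-fold and 3.19-fold. With the gene-level signal that of miR-144-5p turned to -0.92.

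Base composition moved with these values. Over the 197 miRNAs the difference was lower at higher GC content of the probes, with a Spearman rho of -0.32, a description across miRNAs that share the arrays. The 29 miRNAs with probes under 40% GC had a median of 0.55, with 25 above 0 and 11 at least 1.5-fold higher, both miR-144 arms among these. Among these 29, miR-144-5p ranked 3 from the highest, miR-144-3p ranked 7 and miR-451a ranked 19, so miR-451a was below the middle of the miRNAs most like it in composition. The 75 miRNAs with 60% GC or more had a median of -0.19, and miR-486a-5p ranked 65 among them. With the straight-line trend removed, miR-144-5p was at 0.70, miR-144-3p at 0.59, miR-451a at 0.088 and miR-486a-5p at -0.46. The part of base composition in the contrast between the cluster and miR-486a-5p was not tested beyond this, and that contrast was 0.55 for miR-451a and 1.06 and 1.17 for miR-144-3p and miR-144-5p after the trend was removed.

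**Figure D3:**
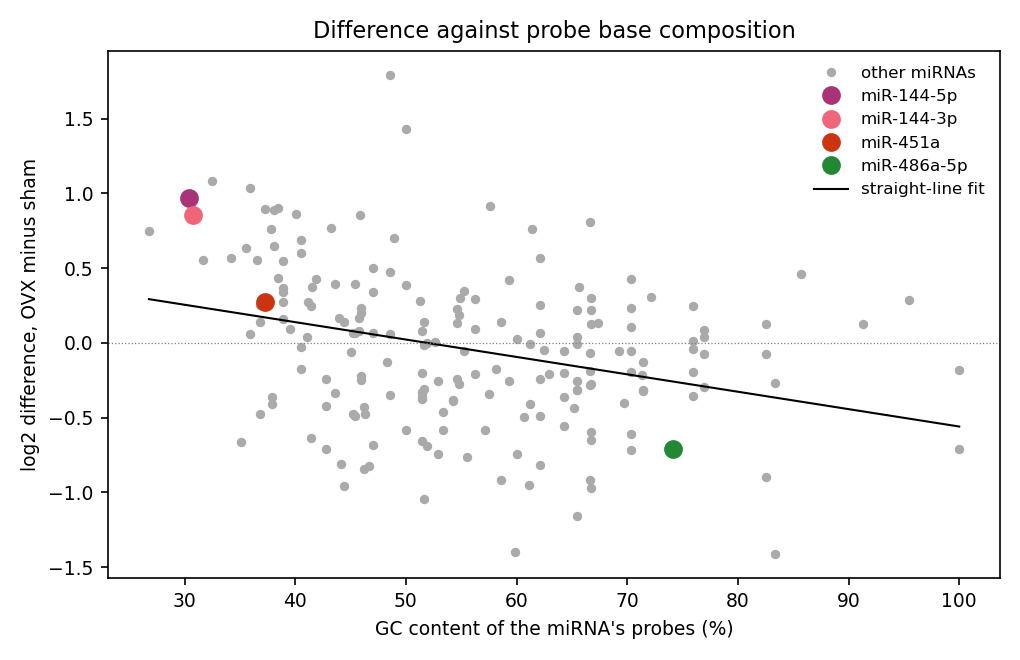
Log2 difference (OVX minus sham, y axis) against the mean GC content of a miRNA's measured probes (x axis, percent) for the 197 miRNAs measured on both arrays, with the straight-line fit in black and the 4 red-cell miRNAs in colour. The miR-144 arms and miR-451a stand at the low-GC end, where the median of the miRNAs under 40% GC was 0.55, and miR-486a-5p stands at 74.2% GC.

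Other miRNAs of red cells and their neighbours give the setting. Of 27 miRNAs abundant in red cells or their precursors, 19 were measured, 12 above 0 (47.2% of all 197 were) and 7 below, with a median of 0.08 beside -0.04 over all 197. Of these 19, 1 was at least 1.5-fold higher and 0 lower, beside 11.2% and 14.7% of all 197. The highest were miR-26b-5p (1.04), let-7f-5p (0.56) and let-7g-5p (0.55). The lowest were miR-107-3p (-0.43), miR-103-3p (-0.42) and miR-92a-3p (-0.40), and miR-16-5p, common in red cells, was at 0.08. Among 14 miRNAs listed here as declining when red cells mature or as restraining them, 10 were measured with a median of -0.34. The roles of the listed miRNAs in red cells were not tested here. The highest were miR-150-5p (1.43), miR-126a-3p (0.77) and miR-34a-5p (0.39). The lowest were miR-221-3p (-0.84), which targets the stem-cell factor receptor Kit, miR-223-3p (-0.63) and miR-103-3p (-0.42). Several miRNAs are in more than 1 of the lists used here and below, and miR-103-3p is in both of these.

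Markers of other cells that share members' tissues were read beside these values. Muscle matters for miR-486a-5p, and of 7 skeletal muscle miRNAs only miR-378a-3p, which is not specific to muscle, was measured on both arrays (-0.69). The defining muscle miRNAs were dim: miR-133b-3p (26.8 in sham, 16.3 in OVX) and miR-133a-3p (19.5 and 10.8) were well above background in sham only, and miR-1a-3p, miR-206-3p, miR-208b-3p and miR-499-5p were not well above background on either array. The summed signal of the list, unscaled, was 81.3 in sham and 82.4 in OVX, while the OVX array was 2.02 times brighter, so the sum was lower relative to the array. Of these sums miR-378a-3p gave 27.9 and 36.1, and the rest came from dim signals. Unscaled, the dim miR-1a-3p (7.09 and 11.2) and miR-206-3p (-0.48 and 7.56) were brighter in OVX, unlike miR-133a-3p and miR-133b-3p. The sum is thus a weak measure of muscle. The part of muscle in the lower miR-486a-5p was not tested. Platelets and their precursors, which share an ancestor with red cells, had 12 of 16 listed miRNAs measured with a median of 0.32, 8 above 0 and 4 below. That median was -0.12 with normexp, 0.045 with dim signals floored and 0.14 with a stricter filter on dim probes. Their highest were miR-150-5p (1.43), miR-26b-5p (1.04) and miR-21a-5p (0.90), and their lowest miR-223-3p (-0.63), miR-103-3p (-0.42) and miR-24-3p (-0.37).

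Granulocyte and monocyte miRNAs went both ways, with a median of -0.34 over 6 of 7. Of these, miR-142a-5p was at 1.08 and miR-142a-3p at 0.63, while miR-23a-3p stood at -0.33, miR-27a-3p at -0.34, miR-24-3p at -0.37 and miR-223-3p at -0.63. Those below 0 are also in the list of miRNAs taken here to decline in or restrain red cells. The equal medians of -0.34 are therefore not separate results. Lymphocyte miRNAs had a median of 0.22 over 5 of 6, led by miR-150-5p at 1.43, then miR-29b-3p at 0.89, miR-342-3p at 0.22, miR-181a-5p at -0.21 and miR-181b-5p at -0.36. Before scaling, the summed signal of the granulocyte list was 7309 in sham and 10791 in OVX, a smaller step than the 2.02-fold between the arrays. Of these sums miR-223-3p alone gave 6212 and 8213, so they mostly follow that 1 miRNA, and both miR-142a arms made a larger step. The summed signal of the lymphocyte list was 365 and 1073, a larger step than that between the arrays. That step mostly follows miR-150-5p (46.4 in sham, 253 in OVX) and miR-29b-3p (93.6 and 350), each measured by 1 probe. The step of miR-342-3p (117.9 and 281) was slightly larger than that between the arrays. Those of miR-181a-5p (58.0 and 100.8) and miR-181b-5p (31.6 and 49.6) were smaller. The endothelial miR-126a-3p was at 0.77, and miR-140-3p, the one stroma and bone miRNA measured, at -0.49. Whether a shift in the mix of marrow cells has a part in the red-cell values was not tested.

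The miRNAs whose difference lay nearest to each member were found among 136 others with at least 2 measured probes, with the distance in log2 difference between these 2 arrays as the measure. They were miR-20b-5p (0.28) and miR-8110 (0.29) for miR-451a, and miR-466f-3p (0.85) and miR-376b-3p (0.86) for miR-144-3p. For miR-144-5p they were miR-574-3p (0.92) and miR-21a-5p (0.90), and for miR-486a-5p miR-1949 (-0.71) and miR-7022-3p (-0.72).

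The directions held under most ways of processing. Each of 15 alternatives put miR-144-3p (0.59 to 1.87) and miR-451a (0.088 to 1.29) above 0. Being above 0 says little without scaling, where 98.0% of all miRNAs were, or with control-probe scaling, where 86.8% were. miR-144-5p was above 0 in 14 of 15 and miR-486a-5p below 0 in 14 of 15. Being below 0 says little with dim signals floored, where 5.10% of all miRNAs were above 0 and miR-486a-5p stood above 87.1% of them. Only 27.9% were above 0 with normexp and 32.0% with median scaling, where miR-486a-5p stood above 17.3% and 9.64% of all miRNAs. The exception for miR-486a-5p was no scaling, where it was at 0.31 and the median of all miRNAs at 0.97. The exception for miR-144-5p was Agilent's gene-level signal, at -1.29, which gave 47.4 in sham and 40.2 in OVX where its own longer probe gave 32.3 and 127.6. In the authors' deposited table, read with its names moved by 1 row, miR-144-5p was at 1.06, miR-144-3p at 0.86, miR-451a at 0.65 and miR-486a-5p at -0.74.

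**Figure D4:**
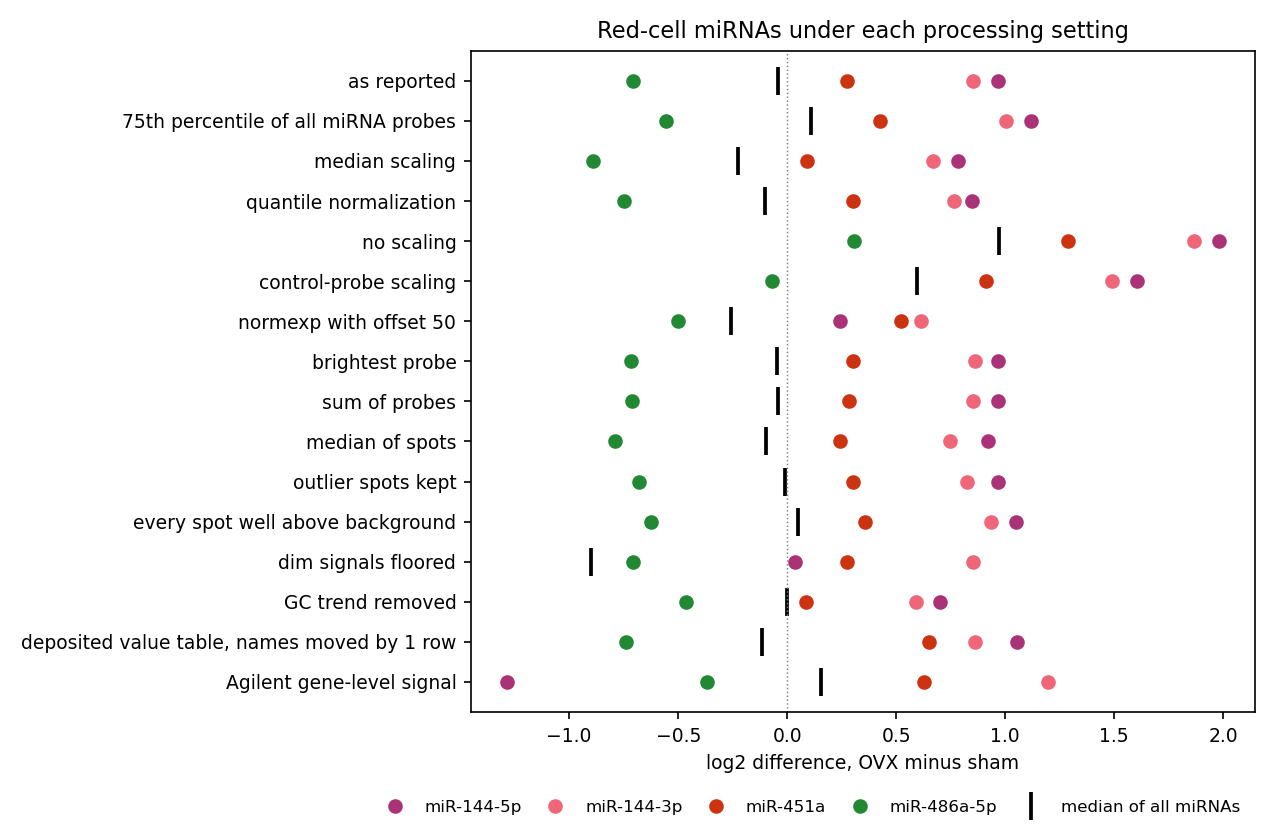
Log2 difference (OVX minus sham, x axis) of the 4 measured red-cell miRNAs under each processing setting (y axis), with a black tick for the median of all miRNAs in that setting. The miR-144-3p and miR-451a points lie right of the tick and of 0 in every setting, miR-486a-5p lies left of the tick except where dim signals are floored, and miR-144-5p lies left of 0 with Agilent's gene-level signal.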

How the data were processed

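The authors' deposited scanner files hold intensities per spot, written by Agilent Feature Extraction per the file headers (version 10.7.1.1, and 11.0.1.1 in the submitters' processing notes; build mm9). The deposited processed intensity is background-subtracted and not normalized between arrays. The authors' deposited value table holds log2 values whose normalization the sources used here do not give. Its column medians equal its floors, -3.18 (sham) and -3.32 (OVX), and its scale and direction follow the array signals, with centring unknown. Its printed names had a Spearman correlation of 0.016 and 0.041 with the arrays' gene-level signals, and 0.996 and 0.994 when moved by 1 row.

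Per the labels' protocols, Cy3-labelled cRNA was made with a linear amplification kit. Outlier spots (2.75% and 2.90%) and control spots were left out, and no miRNA spot was saturated. Processed signals were averaged over a probe's spots (15 before this filter), converted to log2, scaled to the 75th percentile (on each array, over the 350 probes that both arrays measured), and averaged over a miRNA's measured probes (python 3.11.15, pandas 2.3.3). Alternatives included normexp (limma 3.58.1, offset 50). Hairpins were folded with RNAfold 2.7.2. The summary steps were tested on simulated data. With 1 array per group no test was made. Sizes of 1.5-fold and 2-fold were used, and precision is limited by having 1 array per group.

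The members and the lists (red-cell companions, restrainers, platelet, muscle, granulocyte, lymphocyte, stroma and bone, endothelial, absent tissues) were chosen with earlier results of these data known. The lists share members, so their medians are not independent of each other. Named were all 5 members, miR-451b and miR-486b-3p of the same loci, all measured miRNAs of a list or, above 6, its 3 highest and 3 lowest, and the 2 nearest in difference to each member; miR-101a-3p, miR-16-5p and the muscle miRNAs not measured were named after their values were seen.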

Additional observations from a re-analysis of the deposited data

How the results depend on the processing

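Values follow the order miR-451a, then miR-144-3p, then miR-144-5p, then miR-486a-5p. They were 0.43, 1.01, 1.12 and -0.56 with the 75th percentile of all miRNA probes, 0.091, 0.67, 0.78 and -0.89 with median scaling, 1.29, 1.87, 1.98 and 0.31 without scaling, and 0.91, 1.49, 1.60 and -0.071 with control-probe scaling. They were 0.52, 0.61, 0.24 and -0.50 with normexp, 0.088, 0.59, 0.70 and -0.46 with the GC trend removed, and 0.63, 1.20, -1.29 and -0.37 with Agilent's gene-level signal. miR-144-5p was at 0.85 with quantile normalization and 0.035 with dim signals floored, a setting that averages in its dim shorter probe, and miR-451a at 0.65 in the value table. At 1.5-fold, 2 members were higher as reported, 1 under each of normexp and the floored signals, and 3 in the value table, with control-probe scaling and without scaling. Over all 197 miRNAs that size was passed by 22 as reported, 7 with normexp, 100 with control-probe scaling and 155 unscaled. With dim signals floored 20 of 1881 miRNAs passed it, and 46 of 281 did so in the value table. The 1 lower member became 0 with the 75th percentile of all probes, no scaling, control-probe scaling, normexp and the GC correction, and at 2-fold both counts were 0. Over all 197 miRNAs, 29 were at least 1.5-fold lower as reported, and 17, 0, 2, 23 and 25 in those settings, in that order. The loss therefore says little without scaling or with control-probe scaling. With dim signals floored the 1 lower member stayed, where 1669 of 1881 miRNAs were lower. With the gene-level signal the 1 lower member was miR-144-5p and no longer miR-486a-5p, where 41 of 281 miRNAs were lower. The 2 higher members there were miR-451a and miR-144-3p, no longer both miR-144 arms, where 66 of 281 miRNAs were higher.

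Contrasts kept their value with the scalings that add a constant. miR-144-5p minus miR-144-3p was -0.37 with normexp, -0.82 with dim signals floored and -2.48 with the gene-level signal. miR-144-3p minus miR-451a was 0.46 with quantile normalization, 0.092 with normexp and 0.21 in the value table. miR-144-5p minus miR-451a was 0.55, -0.28 and 0.40 in those settings, -0.24 with dim signals floored and -1.91 with the gene-level signal. Against miR-486a-5p, miR-451a was at 0.55 with GC correction and 1.39 in the value table, and miR-144-3p at 1.11 with normexp and 1.06 with GC correction. miR-144-5p was there at 0.74 with normexp, 0.74 with dim signals floored, 1.17 with GC correction, 1.79 in the value table and -0.92 with the gene-level signal. Normexp adds an offset to each signal, which shrinks the ratios of dim miRNAs before scaling; its median of all miRNAs was -0.26. For the other changes the cause was not tested.

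The median of the red-cell companions was -0.11 with median scaling, -0.0034 with the GC trend removed and 1.09 unscaled, and that of both the granulocyte list and the restrainers was 0.67 unscaled and 0.30 with control-probe scaling. The scaling moved the median of all miRNAs from -0.04 to 0.97 (none), 0.60 (control probes), 0.11 (all probes) and -0.23 (median). Leaving out a replicate was not possible with 1 array per group, and the brightest probe, sum of probes, median of spots, kept outlier spots and the stricter dim filter moved no member or contrast by more than the SD of 0.11 between probes. No paired analysis was possible because each group has 1 array and the result comes from no test.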

Other observations

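The files list 4 positions for the miR-486a-5p probes. Of these, 2 lie inside the interval that the RefSeq table gives for Mir486 on GRCm38, although the file header names mm9. The miR-144 and miR-451a probes have 1 listed position each.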
